A study of Homo sapiens with 9 samples.

Results

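The comparison described here set H460-ERT2-RUNX3 cells at 8 h after serum and inducer against the same line at 0 h. Members were the genes with at least 1 FPKM (fragments per kilobase of transcript, scaled for the size of the library) in the higher of both libraries. This held for 11555 of the 24331 rows of the table. A symbol was at hand for 1145 rows, 1144 of them on chromosome 1 plus MMP1, and 571 of these were members. The other 574 symbols stayed below the filter, 323 of them listed at 0 at both times. Of the 571 members, 543 had 1 FPKM in both libraries and 28 in only 1 of them.

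The 9 libraries came from human NCI-H460 cells at passage 11, a large cell lung cancer line taken from pleural fluid that carries an activated K-RAS, wild-type p53 and inactivated RUNX3. All stable lines were starved of serum for 24 h and then given 10% serum, with 1 μM 4-hydroxytamoxifen (4-OHT) in the libraries labelled TAM, for 0, 8 or 16 h. H460-ERT2-RUNX3 expressed wild-type RUNX3 fused to ERT2, H460-ERT2-RUNX3-K94/171R a fusion with substitutions at both lysines needed for binding BRD2, and H460-vec neither. The 0 h libraries are labelled as controls, so 8 h differs from 0 h in serum, 4-OHT and time together, which cannot be told apart within a line. H460-vec had the same serum and 4-OHT, and its values are given for each called gene set apart from it. Each line and time had 1 library, so no difference has a replicate check or a p-value, and no source used here says how many clones each stable line represents.

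RUNX3 is a DNA-binding transcription factor of the Runt family that acts with the cofactor CBFβ and is often silenced in lung tumours. ERT2 is a mutated hormone-binding domain of the estrogen receptor that keeps a fusion protein in the cytoplasm until 4-OHT lets it enter the nucleus. The restriction point is the stage of G1 after which a cell no longer needs mitogens to enter S phase. Stressed cells slow growth through p53 targets and through the integrated stress response, in which the translation factor eIF2α is phosphorylated and ATF4 switches on genes for amino acid supply, tRNA charging and feedback.

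Changes are log2 ratios of FPKM at 8 h to FPKM at 0 h after adding 0.05 to each, and a gene was called when its change reached 1 in either direction. A called gene was set apart from H460-vec when its change also exceeded the change in H460-vec by at least 1 in that direction. The central 90% of changes over all genes ran from −0.89 to 0.96 in H460-ERT2-RUNX3 and from −0.49 to 0.59 in H460-vec, with medians of −0.00 and 0.00. FPKM sums ranged from 554359 to 780952 over the 6 libraries of the shared table. The single-fragment step of low genes put the library size used in scaling at 8 h at 0.905 of that at 0 h, which need not be the sequenced depth. Leukocyte markers were at or near 0, with 8 of 15 listed at 0 in the 4 libraries compared and a summed FPKM of 0.458 at 0 h and 0.428 at 8 h, against 0.590 and 0.647 in H460-vec. Endothelial and stromal markers were at 0 in 3 of 7, and their sum of 14.4 at 0 h and 7.74 at 8 h was mostly OLFML3. Of 7 epithelial markers only ARHGEF16 reached 1 FPKM, at 4.05 and 2.56, RAB25 and PKP1 were listed at 0 in the 4 libraries, and the other 4 stayed between 0 and 0.695. RUNX3 itself was not analysed here, and the labels were therefore not checked against its level.

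Over all 11555 genes, 510 (4.41%) were called higher at 8 h and 438 (3.79%) lower. Apart from H460-vec stood 329 (2.85%) higher and 264 (2.28%) lower. In H460-vec itself 135 of 11503 (1.17%) were higher and 97 (0.843%) lower. Among the 571 members with a symbol, 26 (4.55%) were higher and 24 (4.2%) lower, and 15 and 14 of them were apart from H460-vec, shares close to those over all genes. H460-vec had 14 of 570 (2.46%) higher and 3 (0.526%) lower, beside 1.17% and 0.843% of all genes, so its higher share was above that over all genes. At a change of 2, where all genes gave 1.08% higher and 0.545% lower, 6 members were higher and 5 lower. With the difference from H460-vec also set at 2, 4 each stood apart, beside 0.727% and 0.363% of all genes. IGFN1 and PFKFB2, also past 2, differed from H460-vec by 1.09 and 1.24. The 4 lower were CYR61, HIST3H2BB (1.55 to 0.211 FPKM) and the small RNAs SNORD45A and RNU11, both listed at 0 at 8 h. G0S2, 1 of the 4 higher, was listed at 0 at 0 h. The split between directions rested on the scale: with libraries set to the same FPKM sum, the median gene moved by −0.17 and the counts became 335 higher and 668 lower (33.4% higher, against 53.8% as deposited).

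**Figure D1:**
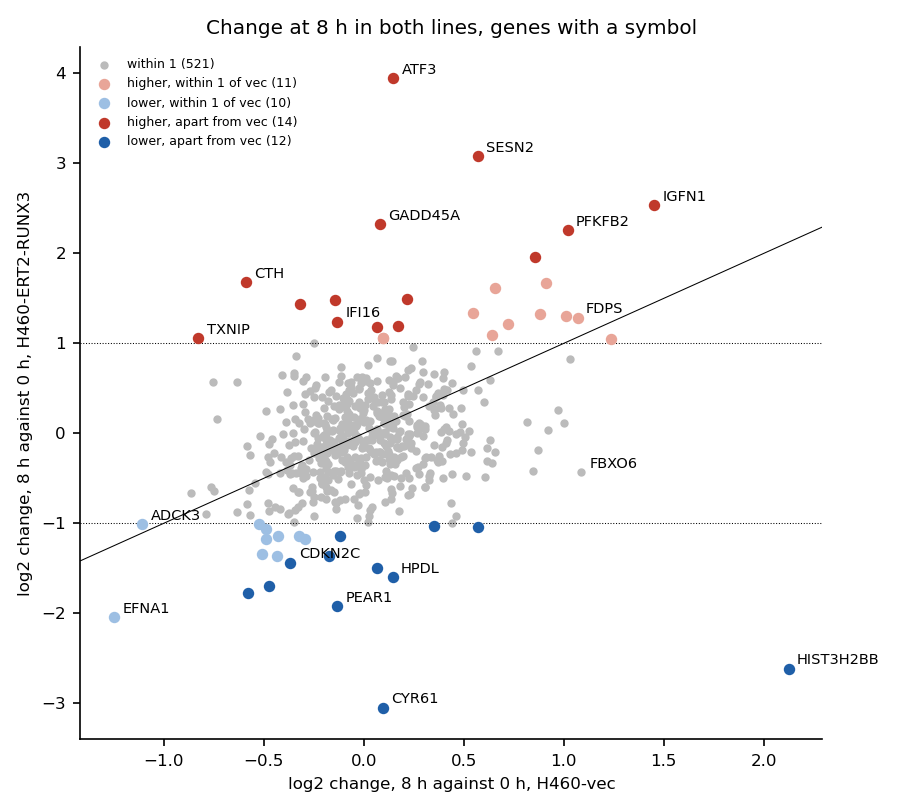
Log2 change from 0 h to 8 h in H460-ERT2-RUNX3 (vertical axis) against that in H460-vec (horizontal axis) for 568 members with a symbol. Each point is 1 gene, dotted lines mark changes of 1 and −1, and the solid line marks equal change. Most points lie near 0 on both axes, ATF3, SESN2 and GADD45A stand high with little change in H460-vec, and CYR61 stands low.

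The promoters of the called genes are shown first, because RUNX proteins bind a short core sequence. Of the 29 genes apart from H460-vec, 22 had a promoter in the RefSeq table used, which gives 250 bases before and 50 after each start; CYR61, GADD45A, PFKFB2, KIAA0754, RNU11, RPS10P7 and SNORD45A did not. The RUNX core (TGTGGT or TGCGGT, both strands) occurred in 4 of 12 genes that were higher and 3 of 10 that were lower, beside 22.9% of the 27305 genes of the table and 24.4% of the 500 members with a promoter. Among called genes that kept within 1 of H460-vec it occurred in 1 of 10 that were higher and 0 of 8 that were lower. These numbers are small, and a match describes letters in a window and not a bound site. The AP-1 pattern TGANTCA was searched loosely, with any base allowed in the middle, and occurred in 1 of the 12 (9.37% of all genes). The cyclic AMP response element TGACGTCA occurred in 1 (2.25%), and the TEAD element GGAATG in 1 of the 12 and 2 of the 10 (16.7%).

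Shown here are the 250 bases before the start, all on the plus strand, for ATF3, which had the largest change among genes with a symbol and no 0 value, and for 5 called genes with a match. Letters are from RefSeq (GRCh38.p14), each stretch was found once, letter for letter, in GRCh37 chromosome 1, and coordinates are GRCh37, the assembly also named hg19. Capitals mark matches to the 4 searched elements. ATF3 and IFI16 are each given at 1 of 2 RefSeq starts. The start with the most matches was taken, so the IFI16 matches come from a start picked for them. The IFI16 stretch also ends upstream of its tabulated locus, which begins at 158979682.
ATF3, chr1:212738499-212738748: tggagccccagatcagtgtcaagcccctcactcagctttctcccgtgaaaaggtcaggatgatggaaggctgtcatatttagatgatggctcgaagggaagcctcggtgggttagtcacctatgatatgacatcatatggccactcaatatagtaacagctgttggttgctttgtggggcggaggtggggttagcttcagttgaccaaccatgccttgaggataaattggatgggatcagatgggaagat
SESN2, chr1:28585779-28586028: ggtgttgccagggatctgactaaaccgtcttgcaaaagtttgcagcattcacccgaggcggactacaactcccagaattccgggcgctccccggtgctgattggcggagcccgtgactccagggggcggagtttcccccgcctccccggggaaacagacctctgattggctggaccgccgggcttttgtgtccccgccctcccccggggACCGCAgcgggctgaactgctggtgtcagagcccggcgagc
IFI16, chr1:158978531-158978780: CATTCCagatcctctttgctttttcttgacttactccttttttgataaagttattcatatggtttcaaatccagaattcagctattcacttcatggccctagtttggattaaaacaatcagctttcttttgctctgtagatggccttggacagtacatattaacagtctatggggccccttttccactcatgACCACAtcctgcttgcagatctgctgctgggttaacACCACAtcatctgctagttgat
GPR137B, chr1:236305589-236305838: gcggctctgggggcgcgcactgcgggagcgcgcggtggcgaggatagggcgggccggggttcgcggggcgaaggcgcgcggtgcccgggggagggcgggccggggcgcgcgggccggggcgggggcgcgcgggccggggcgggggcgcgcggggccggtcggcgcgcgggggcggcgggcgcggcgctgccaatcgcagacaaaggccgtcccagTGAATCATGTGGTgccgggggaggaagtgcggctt
SLC25A33, chr1:9599274-9599523: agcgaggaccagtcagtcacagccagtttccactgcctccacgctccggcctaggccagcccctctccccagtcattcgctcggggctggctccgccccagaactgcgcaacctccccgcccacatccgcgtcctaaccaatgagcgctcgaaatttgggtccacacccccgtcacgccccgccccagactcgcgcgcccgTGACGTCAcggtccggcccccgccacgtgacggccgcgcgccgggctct
VASH2, chr1:213123633-213123882: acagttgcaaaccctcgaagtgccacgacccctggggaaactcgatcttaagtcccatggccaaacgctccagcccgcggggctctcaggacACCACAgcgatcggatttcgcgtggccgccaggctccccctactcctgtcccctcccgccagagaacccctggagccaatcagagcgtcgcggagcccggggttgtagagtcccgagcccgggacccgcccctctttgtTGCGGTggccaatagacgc
The ATF3 stretch held no match. SESN2 carried a RUNX core on the minus strand, 41 bases before its start. IFI16 carried 2, at 58 and 22 bases, besides a TEAD element at its upstream edge. In GPR137B a match to the loose AP-1 pattern at 35 bases, reading TGAATCA, ran directly into the RUNX core at 28 bases. SLC25A33 had a cyclic AMP response element at 49 bases and no RUNX core. VASH2, which was lower at 8 h, carried a RUNX core on each strand, at 158 and 19 bases.

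Among genes with a symbol and no 0 value, ATF3 and SESN2, both stress genes, had the largest positive changes. ATF3 (XLOC_001039, chr1:212738676-212794119), a bZIP repressor induced by many stresses, went from 2.95 FPKM to 46.2 by 8 h and 235 by 16 h. The same 3 times in H460-vec gave 1.52, 1.69 and 4.13, so its 8 h level in H460-ERT2-RUNX3 lay above every H460-vec library. Its change was 3.94, a 15.6-fold difference, against 0.15 in H460-vec. SESN2 (XLOC_000229, chr1:28585963-28609002), a leucine-sensing inhibitor of mTORC1 and a target of both p53 and ATF4, went from 2.61 to 22.4 and then 46.1, with 2.75, 4.11 and 6.01 in H460-vec. Its changes were 3.08 and 0.57. GADD45A (XLOC_000449, chr1:68150860-68154021), a p53 target that restrains CDK1 and activates stress kinases, had 15.9, 80.1 and 131 FPKM, while H460-vec stayed between 9.66 and 10.7. GADD45A was thus 2.33 higher at 8 h, against 0.08.

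Of the 12 members among 14 genes of the stress and growth arrest list, 5 were called higher and 1 lower, beside 4.41% and 3.79% of all genes, with a median change of 0.76 against 0.26 in H460-vec and −0.00 over all genes. The list was chosen with earlier results of these data known, so the count is a description, and the same shares over all genes stand beside the counts of the lists that follow. PLK3, a polo-like kinase of the stress response, went from 2.01 to 6.50 FPKM, but H460-vec also had 1.74 and 3.32, and the changes of 1.67 and 0.91 kept within 1 of each other. ZC3H12A, an RNase that degrades inflammatory mRNAs, behaved likewise, from 2.79 to 7.07 beside 3.54 to 6.56. SFN, the 14-3-3σ arrest protein, reached 97.6 from 51.9 in H460-ERT2-RUNX3 and 88.6 from 55.6 in H460-vec, under the threshold in both. BTG2, an antiproliferative p53 target, was level at 8 h, at 5.07 and 5.15. CDKN2C, the CDK4/6 inhibitor p18, was the 1 member called lower: 18.4, 6.78 and 0.593 FPKM, against 19.3, 14.9 and 12.97 in H460-vec. Its change was −1.44 beside −0.37.

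Of 16 members of the amino acid and unfolded protein list, 2 were called higher and 0 lower, too few to set them off from the 4.41% and 3.79% of all genes, and the median change was 0.14 against −0.12. CTH (XLOC_000455), which makes cysteine from cystathionine and is an ATF4 target, had 8.30, 26.7 and 107 FPKM, while H460-vec had 7.03, 4.66 and 8.53. Its change of 1.68 stood against −0.59, a difference of 2.27. SARS, the cytosolic seryl-tRNA synthetase, went from 78.7 to 178 FPKM beside 70.9 and 74.3, a change of 1.18 against 0.07. With libraries set to the same FPKM sum, the SARS change was 1.00 and just missed the threshold. PHGDH, the first enzyme of serine synthesis, was 0.80 higher (63.2 to 110 FPKM, beside 68.7 and 75.3) and not called. The mitochondrial isoleucyl-tRNA synthetase IARS2 went the other way without being called, from 189 to 111 FPKM, a change of −0.77 beside −0.31. TARS2, also mitochondrial, was nearly level at 22.6 and 21.0. ATF6, the membrane-bound sensor of unfolded protein in the endoplasmic reticulum, had 21.8 and 28.0 FPKM, and the heat shock gene HSPA6 stayed under 1 FPKM at both times.

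Of 9 members of the nutrient list, 3 were called higher and 0 lower: SESN2, counted above on the stress list too, TXNIP and PFKFB2. TXNIP, which binds thioredoxin and limits glucose uptake, had 18.6, 38.9 and 65.9 FPKM in H460-ERT2-RUNX3 but 22.5, 12.7 and 15.6 in H460-vec. Both lines thus moved apart, by 1.06 and −0.83, although the TXNIP change was 0.88 with libraries set to the same FPKM sum. PFKFB2, which sets the level of the glycolytic activator fructose-2,6-bisphosphate, had 1.43, 7.04 and 16.5 FPKM beside 2.04, 4.19 and 3.46, so H460-vec also crossed the threshold (2.26 against 1.02). SLC25A33, a member of the nucleotide list and a mitochondrial pyrimidine nucleotide carrier, went from 8.77 to 24.7 FPKM, with 10.6 and 12.4 in H460-vec (1.49 against 0.22). On the nutrient list PRKAA2, a catalytic subunit of AMPK, was not called at 10.7 and 12.9, nor PINK1, the mitochondrial damage kinase, at 3.67 and 2.69.

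IFI16 (XLOC_000798), an interferon-inducible sensor of nuclear and cytosolic DNA, had 58.7, 139 and 475 FPKM, while H460-vec stayed between 39.5 and 43.8. Its change was 1.24 against −0.13. It was the 1 called gene of 8 members on the interferon list, whose median change was −0.20 against 0.06. ISG15, the ubiquitin-like modifier, had 4.42 and 5.46 FPKM, IFI44 17.7 and 13.1, and IFI44L 5.39 and 4.67, none called. FBXO6, an F-box protein that recognises glycoproteins, crossed the threshold in H460-vec (2.11 to 4.53) and not in H460-ERT2-RUNX3 (3.23 to 2.38). Of 20 genes on the cytokine, receptor and complement list, 8 were members and 0 were called. CD55, which protects cells from complement, came nearest of all members outside the threshold, with 78.2 and 156 FPKM and a change of 0.9999, and had 1805 at 16 h. IL24, a secreted cytokine, was at 0.0758 and 0.0736 FPKM at 0 h and 8 h and had 102 at 16 h.

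Among the remaining genes apart from H460-vec, LMO4, a LIM-only transcriptional adaptor, went from 2.91 to 8.23 FPKM beside 3.02 and 2.74. GPR137B, a lysosomal membrane protein, went from 3.44 to 9.41 and on to 35.0 at 16 h, beside 4.10, 3.28 and 3.42. IGFN1, an immunoglobulin-like protein of muscle, had 2.74, 16.1 and 71.9 FPKM, but H460-vec started at 0.436 and also passed the threshold, to 1.28, and the 0 h libraries of both lines already differed by 2.52. G0S2, an inhibitor of the triglyceride lipase ATGL, was listed at 0 at 0 h and had 2.21 FPKM at 8 h, while H460-vec went from 0.0766 to 0.458, which also passed the threshold. RPS10P7 is a processed pseudogene, at 0.740 and 3.02 FPKM beside 0.587 and 1.10, and its reads may be shared with the ribosomal protein gene it copies. MATN1-AS1, an antisense RNA counted from a strand-marking library kit, was barely over the filter, at 0.439 and 1.07 beside 0.483 and 0.549.

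**Figure D2:**
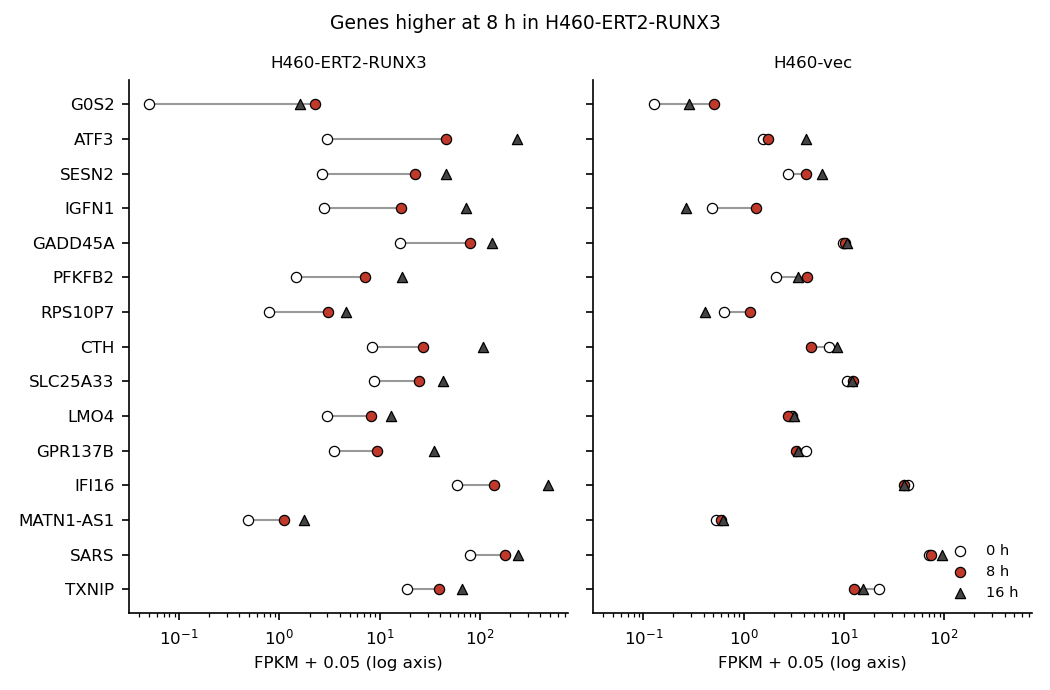
FPKM plus 0.05 on a log axis for the 15 members higher at 8 h and apart from H460-vec, in H460-ERT2-RUNX3 (left) and H460-vec (right). Open circles are 0 h, filled circles 8 h, triangles 16 h, 1 library each, and grey lines join 0 h to 8 h. In the left panel 14 of 15 genes lie further right at 16 h than at 8 h, G0S2 being the exception.

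Of the 15 genes higher at 8 h, 14 had a still higher level at 16 h, beside 43.8% of all 571 members. At 8 h itself 12 of the 15 exceeded H460-vec by 1 or more, a count that the choice of these genes from the same libraries largely fixes; SLC25A33 lay just under, at 0.9957, MATN1-AS1 had 0.90 and PFKFB2 0.74. Read against the 0 h library of H460-vec in place of their own, 14 of 15 kept a change of at least 1, the exception being TXNIP at 0.79. Both libraries of that reading also entered the choice of genes, so it is no separate check.

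Among members with a symbol and no 0 value, the largest negative change was that of the matricellular gene CYR61. CYR61 (XLOC_000486, chr1:86046444-86049648), a secreted integrin ligand switched on early by serum and by YAP with TEAD, went from 33.5 FPKM to 4.01 and then 5.00. H460-vec held 16.4, 17.5 and 16.8, so the 8 h level was under all 3 and the 0 h level was above them. The change was −3.05 against 0.10. Of the 21 members on the serum, growth factor and adhesion list, 4 were called lower and 1 higher, and the median change was −0.38 against 0.07. EFNA1, a membrane-anchored ligand of Eph receptors, had 51.9 and 12.6 FPKM, but H460-vec was lower as well, at 36.6 and 15.4 (−2.04 and −1.25). TGFB2, a growth factor of the TGF-β family, had 16.0 and 6.28 beside 11.9 and 8.33, and also kept within 1 of H460-vec. CSF1, the macrophage growth factor, ended just short of the threshold at −0.98, from 12.4 to 6.25 FPKM, and was −0.35 in H460-vec. RGS2, a brake on G protein signalling, had 266, 241 and 44.2 FPKM, against 320, 365 and 439 in H460-vec.

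HPDL, a mitochondrial dioxygenase, had 17.0, 5.58 and 0.840 FPKM beside 17.8, 19.7 and 16.8 in H460-vec, and a change of −1.59 against 0.15. MARC1, a molybdenum enzyme of the outer mitochondrial membrane, had 3.69, 1.41 and 0.289 FPKM, all below the 6.47 to 7.82 of H460-vec. FAM213B, which makes prostaglandin F2α, went from 6.34 to 3.06 while H460-vec went from 5.74 to 8.56. VASH2, a tubulin carboxypeptidase, had 1.39 and 0.654 FPKM beside 2.09 and 2.69. MR1, which presents vitamin B metabolites to T cells, had 2.67 and 1.18 beside 1.47 and 1.35, so both lines ended near the same level. MAB21L3, an uncharacterised relative of MAB21, had 2.34 and 0.796 beside 1.46 and 1.53.

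Several of the 14 lower genes had low values throughout or a 0 h value above that of H460-vec. In 8 of the 14, 1 of the libraries compared was under 1 FPKM, and 2 were listed at 0. PEAR1, a platelet adhesion receptor, had 1.17 FPKM at 0 h but 0.272 at 8 h, a level that H460-vec held at both times (0.257 and 0.230). HIST3H2BB, a histone H2B gene, had 1.55, 0.211 and 2.10 FPKM, and H460-vec had 0.218, 1.12 and 0.226, so both lines crossed the threshold in opposite directions. As replication-dependent histone mRNAs lack poly(A) tails, a poly(A)-selected library records them poorly. C1orf213 had 1.66 and 0.451 FPKM beside 0.966 and 0.631. KIAA0754 had 1.01 and 0.277 beside 0.638 and 0.446, and lies within the much larger locus of MACF1. The small RNAs SNORD45A and RNU11 are too short for fragments of such a library to measure well. SNORD45A had a value only in the 0 h library of H460-ERT2-RUNX3 (436 FPKM) and the 8 h library of H460-vec (371), and both lines list it at 0 otherwise. RNU11, the U11 small nuclear RNA, was listed at 8.81, 0 and 4.53, and at 20.6, 16.8 and 20.9 in H460-vec. Neither has a fold change that can be read.

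**Figure D3:**
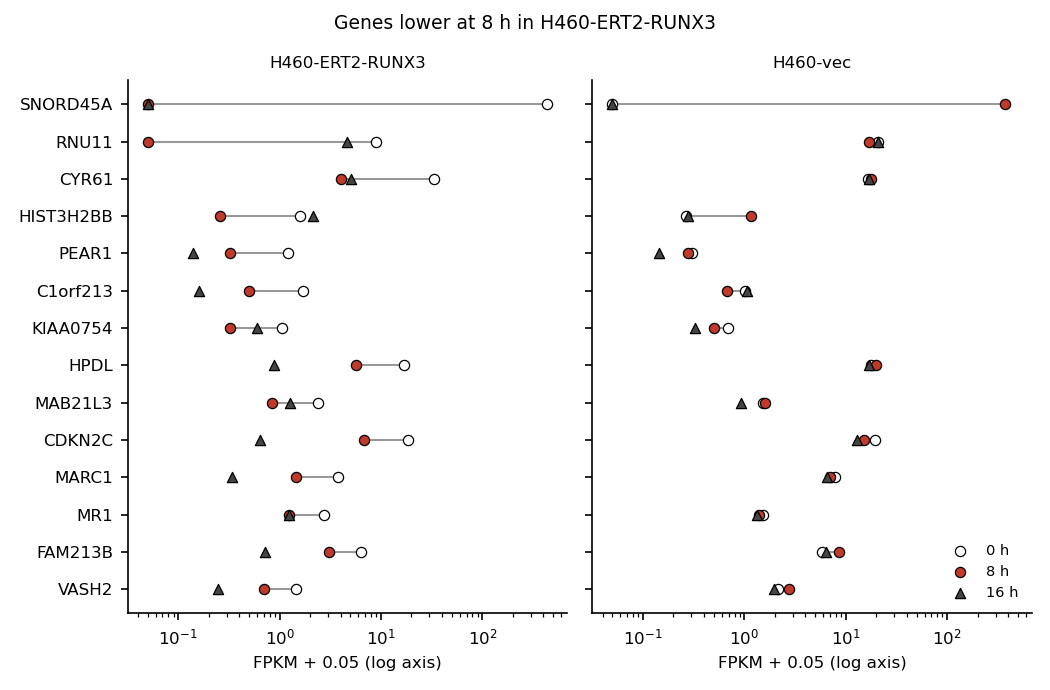
FPKM plus 0.05 on a log axis for the 14 members lower at 8 h and apart from H460-vec, with the same symbols as for the higher genes. CYR61 and HPDL shift left in H460-ERT2-RUNX3 and slightly right in H460-vec, CDKN2C and MARC1 shift left in both panels but less in H460-vec, and SNORD45A and HIST3H2BB jump in both panels.

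Of the 14 lower genes, 9 were also at least 1 below H460-vec at 8 h, which the choice of genes again largely fixes, and 7 were lower still at 16 h, beside 56.0% of members. Read against the 0 h library of H460-vec, which also entered the choice of genes, 8 of 14 kept a change of −1 or lower. MR1, PEAR1 and HIST3H2BB then had −0.30, 0.07 and −0.03, SNORD45A was listed at 0 in both libraries, and FAM213B and MAB21L3 had −0.90 and −0.84.

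Called genes that kept within 1 of H460-vec numbered 11 higher and 10 lower. FDPS, the farnesyl diphosphate synthase of isoprenoid and sterol synthesis, had 162, 394 and 349 FPKM, and H460-vec 180, 378 and 462. HSD17B7, a sterol reductase of cholesterol synthesis, had 10.8 and 26.7 beside 13.5 and 27.2. These changes (1.29 and 1.30) were nearly the same as in H460-vec (1.07 and 1.01), and both genes were lower at 8 h in K94/171R, where FDPS had 581 and 377 FPKM and HSD17B7 30.2 and 8.97. Next in the pathway, GGPS1, the geranylgeranyl diphosphate synthase, was 0.96 higher (18.0 to 35.1 FPKM) beside 0.25, just outside the threshold. The FDPS locus as tabulated overlapped that of RUSC1. NPR1, the receptor of natriuretic peptides, was higher in both lines at 8 h (2.41 to 5.06 and 3.99 to 9.47) and at 0.888 at 16 h in H460-ERT2-RUNX3 alone. ADCK3, a kinase-like protein of coenzyme Q synthesis, was lower by the same measure in both lines (9.85 to 4.88 and 10.7 to 4.94).

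The other higher genes within 1 of H460-vec were ZFP69B, PQLC2, MFSD2A, PLEKHO1, DNAH14 and ZDHHC18, with changes from 1.05 to 1.61. In that order H460-vec had 0.66, 0.55, 0.72, 0.64, 0.10 and 0.10. DNAH14, ZDHHC18 and ZFP69B just missed being apart, with differences of 0.97, 0.96 and 0.95. PLEKHO1, an adaptor that binds casein kinase 2, was at 2.70 and 5.84 FPKM at 8 h and reached 51.3 at 16 h. MFSD2A, a lysophospholipid transporter, was at 1.46 and 3.48 and reached 18.5. The other lower genes were CPT2, which releases fatty acids for mitochondrial oxidation (12.1 to 5.81), RNF207, ARTN, FHAD1, CHI3L2 and LOC149134, the largest of these changes being −1.36. Just inside the threshold were NPR1, ZDHHC18 and TXNIP at 1.05 to 1.06 and FHAD1, ADCK3 and VASH2 at −1.003 to −1.03. Just outside were CD55, GGPS1 and ZNF593 at 0.9999 to 0.92 and VWA1, FCRLB and CSF1 at −0.99 to −0.98.

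Of cell division genes, none of the 16 on the mitosis list and 1 of the 16 members of the replication list, HIST3H2BB, was called, counts near the shares over all genes. A negative change was found in 13 and 14 of them, beside 50.2% of all genes, and in 8 and 10 in H460-vec, beside 49.5%. The medians were −0.24 and −0.34, against −0.07 and −0.12 in H460-vec. CENPF, a kinetochore protein, had 62.9, 34.5 and 13.7 FPKM beside 69.9, 50.4 and 58.6. CDC20, the activator of the anaphase-promoting complex, had 78.0, 48.3 and 11.9 beside 74.9, 87.2 and 71.6. DTL, a substrate receptor of the CUL4 ubiquitin ligase active at replication, had 28.4 and 14.98 beside 28.2 and 28.7, and EXO1, a repair exonuclease, 126 and 68.0 beside 138 and 106. CKS1B, a CDK-binding protein, went the other way, from 266 to 393 FPKM beside 293 and 299.

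The ribosomal protein genes RPL5, RPL11 and RPS27 had small changes of the same sign. None was called: the changes were 0.19 to 0.50 at 8 h, beside −0.18 to −0.02 in H460-vec. RPS27 for example had 4655 and 6594 FPKM beside 5940 and 5850. With libraries set to the same FPKM sum these changes were 0.02 to 0.32, beside −0.17 to −0.01 in H460-vec. Ribosome biogenesis factors had a median of 0.20 against 0.14, with 0 of 10 called; the largest was ZNF593 at 0.92 beside 0.56. Of 14 mitochondrial genes 0 were called and the signs split 7 to 7; the most positive was COA6, a cytochrome oxidase assembly factor (0.67, 225 to 359 FPKM).

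Among 8 members of the nucleotide list only SLC25A33 was called; CTPS1, which makes CTP, was level at 45.8 and 43.4 FPKM. None of the 9 glutathione and redox members was called, and the glutathione transferases GSTM1, GSTM2 and GSTM4 had −0.29, −0.25 and −0.27 at 8 h, beside −0.11, 0.37 and −0.04; reads of these near-identical genes may be split between them. None of 16 chromatin regulators was called, from ARID1A, a SWI/SNF subunit (−0.61, 11.1 to 7.26 FPKM), to KDM4A, a histone demethylase (0.38). RNF2, a Polycomb ubiquitin ligase, had 6.82 and 8.53 FPKM. MMP1, an interstitial collagenase on chromosome 11, was at 0.127 and 0.193 FPKM, below the filter, and had 505 FPKM at 16 h.

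**Figure D4:**
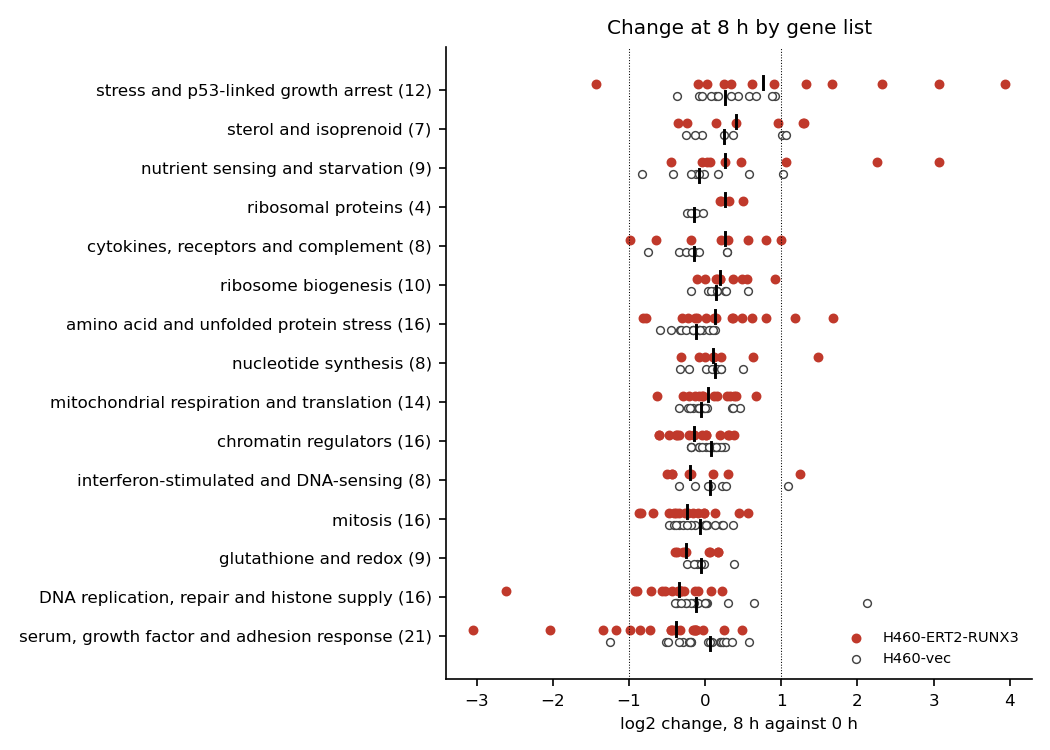
Log2 change from 0 h to 8 h for the members of 15 gene lists, with the number of members in brackets. Filled points are H460-ERT2-RUNX3, open points H460-vec, and black ticks the medians; G0S2, listed at 0 at 0 h, is not drawn. The stress and growth arrest list has the highest median (0.76) and the serum, growth factor and adhesion list the lowest (−0.38).

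The K94/171R line gave a reading in libraries that the choice of genes did not use, though from a separately made table matched by Ensembl identifier. The 543 matched members were filtered on FPKM in H460-ERT2-RUNX3 alone. Of these, 16 (2.95%) were at least 1 higher in K94/171R at 8 h and 11 (2.03%) lower. Of the 11252 genes with at least 1 FPKM in K94/171R at 0 h or 8 h, 143 (1.27%) were higher and 280 (2.49%) lower. As the filters differ, these shares are not like for like, and the members include genes near 0 in K94/171R, such as PEAR1 (0.141 and 0.493 FPKM). Of the 15 genes higher in H460-ERT2-RUNX3, 12 were matched, and 1 of these was called higher, IGFN1 (3.72 to 12.3 FPKM). Of the 12, 5 had a positive change, and the median was −0.15. Of the 501 matched members that were not called, 264 had a negative change, with a median of −0.02. The 12 genes are too few to set off from that share. ATF3 had 2.41 and 1.85 FPKM, SESN2 9.45 and 7.16, GADD45A 22.9 and 16.4, CTH 13.8 and 10.2, and IFI16 20.9 and 21.8. Of the 14 lower genes 10 were matched and 7 had a negative change, beside the same 264 of 501. The median over the 10 was −0.20. Only HIST3H2BB was at least 1 lower there, at 0.634 and 0.209 FPKM, which is under the filter and so not a call. CYR61 had 30.3 and 22.6 FPKM there, HPDL 13.7 and 19.0, and CDKN2C 19.7 and 16.9. EFNA1, lower in both other lines, was lower here too (25.2 to 9.52).

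**Figure D5:**
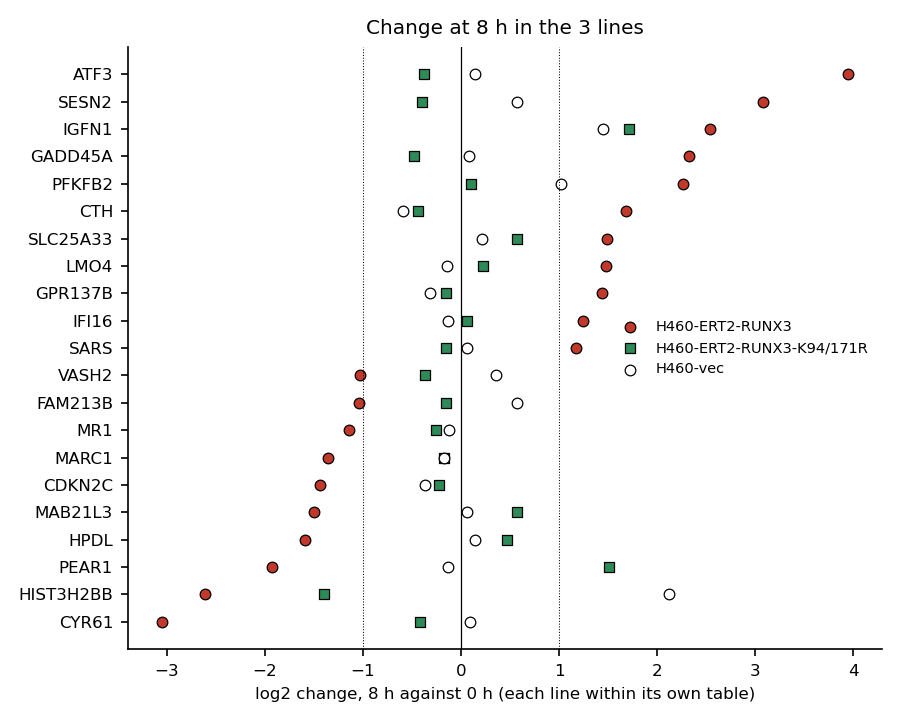
Log2 change from 0 h to 8 h in the 3 lines for 21 genes apart from H460-vec that were matched in K94/171R and had no 0 value in H460-ERT2-RUNX3. Circles filled in red are H460-ERT2-RUNX3, squares K94/171R, open circles H460-vec, 1 library pair each. For ATF3, SESN2, GADD45A and CTH the K94/171R square lies slightly left of 0.

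In each direction, rows without a symbol held larger changes than any gene with a symbol and no 0 value. XLOC_008128 went from 3.03 to 695 FPKM (6.85 to 24.3 in H460-vec) and XLOC_008125 from 2.42 to 220 (3.18 to 3.49). XLOC_019080 went from 51.8 to 3.16 (59.5 to 38.2) and XLOC_012568 from 32.0 to 2.38 (30.3 to 15.2). These 4 were the largest in each direction with at least 1 FPKM in both libraries and apart from H460-vec.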

How the data were processed

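RNA-seq was performed on 9 libraries, 1 per line and time, with a strand-marking poly(A) kit on a NextSeq500. Per the labels and the study's methods, the authors trimmed adapters with Cutadapt, mapped reads to hg19 with STAR (2.5.0 in the submitters' processing notes) and used Cufflinks and Cuffdiff (2.2.1); the deposited values are FPKM, in a table of 6 libraries (both compared lines and times) and another of the 3 K94/171R libraries. The annotation used is not given in the sources used here. Counts and absolute depth are not known, so no interval or floor is given. Changes were compared only within a table.

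Symbols, loci and Ensembl identifiers were read from the study's supplementary gene table, without its values; starts were raised by 1 to count from 1. Of the 1145 symbols, 1069 were found in GENCODE 44 lifted to GRCh37, 1059 of them on the plus strand, so most minus-strand genes of chromosome 1 are unnamed here. The members and lists were chosen with earlier results of these data known. Named genes were all called genes apart from H460-vec, up to 10 a direction of the other called genes by size (NPR1 was added after its values were seen), the members with the largest changes of each list, MMP1 and up to 2 unnamed rows a direction. Changes used python 3.11.15, pandas and numpy, and were tested on simulated data. Alternatives were other pseudocounts (1, 0.01), filters, scalings and a threshold of 2. The authors' fold changes in the gene table were not used. A few list members are not reported here.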

Additional observations from a re-analysis of the deposited data

Results flagged for a closer look

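Among members with a symbol, 2 genes crossed the threshold in opposite directions in both lines. SNORD45A had a change of −13.1 in H460-ERT2-RUNX3 and 12.9 in H460-vec, each from 1 library with a value and 1 listed at 0, so neither is a fold difference. HIST3H2BB had a change of −2.61 in H460-ERT2-RUNX3 and 2.12 in H460-vec, all at or under 1.55 FPKM. With 1 library on each side the difference between the lines was not tested.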

How the results depend on the processing

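No paired analysis was possible because each line and time had 1 library and no test was made. In counts given as higher and lower, a pseudocount of 1 left 181 genes lower in H460-ERT2-RUNX3 and 98 lower apart from H460-vec, and 71 and 35 called in H460-vec; of genes with a symbol 8 were lower and 5 lower apart, with 6 and 1 in H460-vec. Without a filter the counts were 1070 and 1238, 734 and 807 apart, and 640 and 593 in H460-vec, or 48 and 77, 30 and 54, and 35 and 33 of genes with a symbol. At 5 FPKM, 214 were lower and 124 lower apart, with 76 and 33 in H460-vec, and of genes with a symbol 11, 6 and, higher in H460-vec, 9. Equal FPKM sums gave 335 and 668, 216 and 434 apart, and 43 and 26 lower of genes with a symbol. A threshold of 2 was applied to the difference from H460-vec as well. It gave 125 and 63, 84 and 42 apart, and 45 and 24 in H460-vec. For genes with a symbol it gave 6 and 5, 4 and 4, and 5 and 0. All other planned counts, those under a pseudocount of 0.01, a mean of 1 FPKM and centring included, were within 1.5 times the values reported.

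Of the 50 called genes with a symbol, 29 stayed past 1 with a pseudocount of 1, 44 with equal FPKM sums and 50 with centring. A base of H460-vec at 0 h, chosen after seeing the data, kept 32; PEAR1 then had 0.0692 and CHI3L2 0.33, both reversed. Depth is not known, as the relative steps give only the scaling used, so low values carry no counting error here. The single libraries leave the spread between cultures unmeasured.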
